A study of Drosophila melanogaster with 3 samples.

Results

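Toll and Imd are the pathways through which Drosophila cells recognise microbes and switch on antimicrobial genes, and 10 genes that carry their core signal were examined here for peaks of the chromatin remodeler SMARCAD1 and the acetyltransferase CBP. They were chosen by name, with earlier results of these data known. PGRP-LC, imd, key and Rel stand for the Imd pathway, and Tl, tub, pll, cact, dl and Dif for the Toll pathway. Every entry of the peak tables that named a member was taken, which gave 13 SMARCAD1 peaks at 8 members, out of 3211 SMARCAD1 peaks, and 10 CBP peaks at 8 members, out of 3762 CBP peaks. The members are 10 of the 13951 protein-coding genes of the RefSeq list. Chromatin came from S2 cells, a cultured line from Drosophila melanogaster embryos with features of blood cells, and was precipitated with custom-made antibodies to SMARCAD1 (ASNA) or to CBP. Both ChIPs and the input DNA, for which no table was used here, shared 1 treatment with no immune stimulus named, dsRNA of EGFP for 6 h at 26 °C and then 72 h in medium with FBS, so the tables describe cells under a control knockdown. Each antibody had a single library. Without replicates the antibodies were not tested against each other, and every difference below describes these libraries. The tables give positions and widths with no read count or score, so depth is unknown, and a peak that is missing from a table cannot be told from one below detection.

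In the Toll pathway, the cytokine-like ligand Spatzle binds the receptor Toll, the adaptors MyD88 and Tube and the kinase Pelle pass the signal on, the inhibitor Cactus is degraded, and the NF-κB proteins Dorsal and Dif enter the nucleus. In the Imd pathway, the receptor PGRP-LC binds bacterial peptidoglycan, the adaptor Imd assembles a complex, an IκB kinase with the regulatory subunit Kenny (key) is activated, and the NF-κB precursor Relish (Rel) is cleaved and enters the nucleus. Hemocytes and the fat body of the fly use both pathways, and S2 cells are a common model of them.

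A gene start counted as covered where a peak included the single transcription start site (TSS) that the tables give for that gene. The starts of 5 members, PGRP-LC, imd, key, Rel and pll, were covered by peaks of both SMARCAD1 and CBP. At tub the start was covered by SMARCAD1 alone, and at cact and dl it was covered by CBP alone. Dif was listed for SMARCAD1 through a peak far inside the gene, and Tl was listed for neither antibody. In all, SMARCAD1 covered the start of 6 of the 10 members and CBP that of 7. When the peak centre had to lie within 500 bp of the start instead, 3 members were left for SMARCAD1 (key, tub and pll), 5 for CBP (imd, key, pll, cact and dl) and 2 for both, key and pll. Among all protein-coding genes, the start was covered in 17.8% by SMARCAD1 (95% Wilson interval 17.2 to 18.4%), in 23.9% by CBP (23.2 to 24.6%) and in 12.5% by both (11.9 to 13.0%). These shares are the background of the 6, 7 and 5 members with a covered start. The 500-bp counts have no background here. The intervals cover counting error only. Entries of any class were found for 8 members with SMARCAD1, against a background of 28.2% of genes, for 8 with CBP, against 31.1%, and for 7 with both, against 20.1%. Expression of the genes in S2 cells was not measured in these tables, and its part in these counts was not tested.

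**Figure D1:**
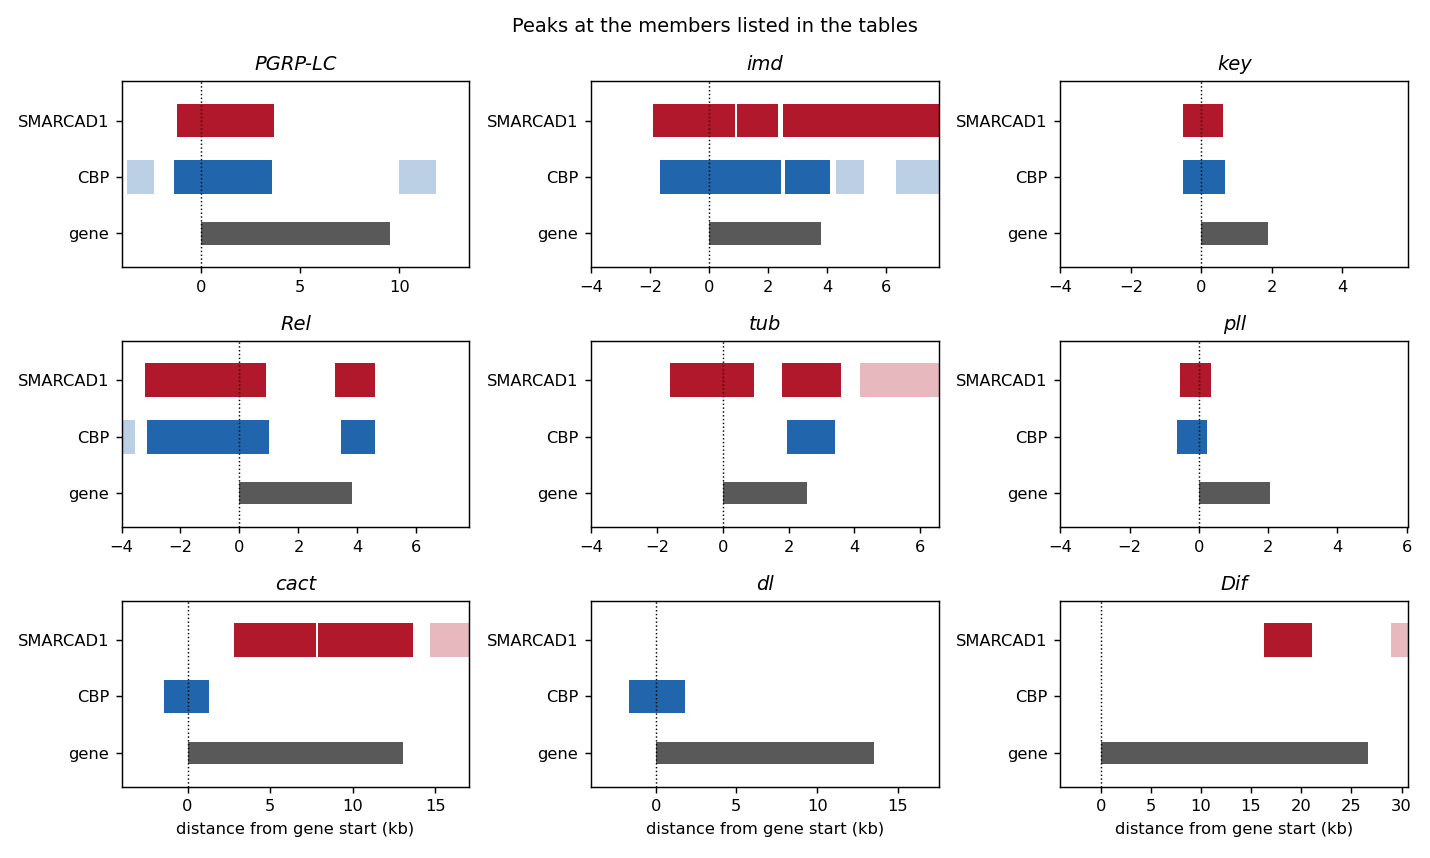
Position of peaks at the 9 members with an entry, in kb from the gene start along the direction of transcription. Red bars are SMARCAD1 peaks, blue bars CBP peaks (pale where the tables do not list the peak for that member) and grey bars the gene. Over the starts of PGRP-LC, imd, key, Rel and pll red and blue bars lie together, whereas the start is under SMARCAD1 alone at tub, under CBP alone at cact and dl and under neither at Dif.

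All 4 Imd members had the start under both antibodies, against 1 of 6 Toll members, pll. This difference depended on how a start was counted, and with centres of both antibodies within 500 bp of the start it was 1 of 4 Imd members and 1 of 6 Toll members. Of the 6 members with SMARCAD1 at the start, 5 also had CBP there, against 70.1% of such genes in the whole tables. Of the 7 with CBP at the start, 5 also had SMARCAD1, against 52.3%. With so few genes, chosen by name with earlier results of these data known, this is a description and was not tested.

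PGRP-LC, the peptidoglycan receptor, had a wide peak of each antibody over its start, with nearly the same edges. Its SMARCAD1 peak, on 3L from 9330684 to 9335596, was 4913 bp wide, and its CBP peak, from 9330555 to 9335514, was 4960 bp wide. Their left edges differed by 129 bp and their right edges by 82 bp, so that 98.3% of the SMARCAD1 peak and 97.4% of the CBP peak were shared. Both peaks were among the widest of their libraries: 92.8% of SMARCAD1 peaks and 95.5% of CBP peaks were narrower. The SMARCAD1 peak reached 1226 bp upstream of the start and 3686 bp into the gene, and that of CBP 1355 bp upstream and 3604 bp inward. Each also covered the end of the neighbouring gene PGRP-LA, another peptidoglycan recognition protein gene, so the upstream part cannot be assigned to PGRP-LC alone. The neighbours differed between the antibodies. CBP had a further peak of 1382 bp inside PGRP-LA, with its centre 1440 bp from the PGRP-LA start. Another CBP peak, of 1902 bp, covered the start of PGRP-LF, which encodes a receptor that dampens Imd signalling and is named here after its values were seen. Neither of these CBP peaks overlapped a SMARCAD1 peak.

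The adaptor gene imd was the member with the largest share of its length under peaks of either antibody. SMARCAD1 peaks covered 94.1% of its 3782 bp and CBP peaks 96.2%. SMARCAD1 was called there as 3 peaks. The peak at the start lay on 2R from 14300207 to 14302968, was 2762 bp wide and had its centre at -511 bp, where negative distances are upstream of the start. Next to it was a peak of 1401 bp inside the gene, and the last, of 5991 bp, ran over the end of imd and across GstE6, GstE7, GstE8 and GstE9, 4 glutathione S-transferase genes, into GstE5. CBP was called as 2 peaks. The wider of these, of 4116 bp from 14298639 to 14302754, covered the start with its centre 381 bp downstream, and the other, of 1506 bp, covered the gene end. The CBP peak at the start spanned the whole of the 1401-bp SMARCAD1 peak and 92.3% of the 2762-bp one, so the tables divided the region differently while covering nearly the same bases. Among genes listed for SMARCAD1, 5.84% had 3 or more SMARCAD1 peaks. The start of Dp1, a gene on the opposite strand that begins within imd, was covered as well, by the 1401-bp SMARCAD1 peak and by the CBP peak at the imd start. Which of these starts the peaks belong to cannot be told apart.

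At key, which encodes the regulatory subunit of the IκB kinase, a single narrow peak of each antibody lay over the start. The SMARCAD1 peak, on 2R from 20674298 to 20675437, was 1140 bp wide, and the CBP peak, from 20674257 to 20675450, was 1194 bp wide. CBP extended beyond SMARCAD1 by 41 bp on the left and 13 bp on the right, and the centres were 14 bp apart, at 51 bp for SMARCAD1 and 65 bp for CBP downstream of the start. This was the smallest distance between centres among the members. No other gene was listed for either peak, which makes key the only member at which every peak of both antibodies was listed for the member alone.

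Rel, the NF-κB gene of the Imd pathway, had a pair of peaks at each end. At the start, the SMARCAD1 peak ran on 3R from 4872812 to 4876919 (4108 bp) and the CBP peak from 4872704 to 4876831 (4128 bp). They shared 97.9% of the SMARCAD1 peak and 97.4% of the CBP peak. Most of their length lay upstream of Rel, down to -3220 bp for SMARCAD1 and -3132 bp for CBP. There they also covered the starts of Nmdmc, which encodes an enzyme of folate metabolism, and of Mst85C. In the tables Rel lies within the span of Nmdmc, so neither peak belongs to Rel alone. The pair at the gene end was narrow, 1355 bp for SMARCAD1 and 1162 bp for CBP, with 84.5% of the SMARCAD1 peak and 98.5% of the CBP peak shared. The middle of the gene held no peak, and peaks covered 38.1% of Rel with SMARCAD1 and 35.4% with CBP.

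**Figure D2:**
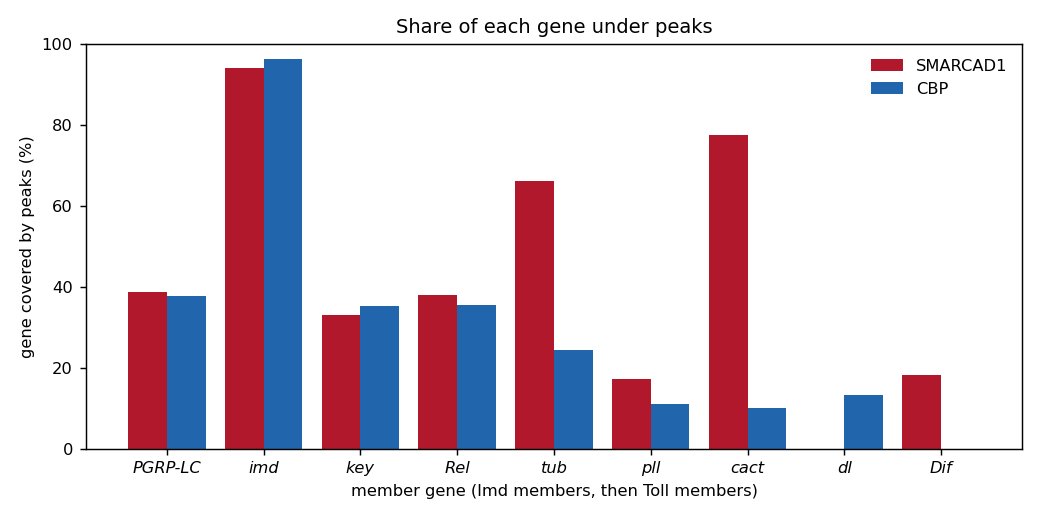
Share of the length of each of the 9 listed members that lies under peaks, in percent. Red bars are SMARCAD1 and blue bars CBP, with 1 library each and no error bars. The bars differ by less than 3 percentage points at PGRP-LC, imd, key and Rel, and most at tub (66.2% with SMARCAD1 and 24.4% with CBP) and cact (77.4% with SMARCAD1 and 9.97% with CBP).

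The share of the gene under peaks was thus close between the antibodies at each Imd member. SMARCAD1 minus CBP was 0.861 percentage points at PGRP-LC, -2.09 at imd, -2.18 at key and 2.68 at Rel. Over the 3055 genes listed for both antibodies, the median size of this difference was 6.99 percentage points, and for the Imd members between 17.4% and 29.6% of those genes had a smaller one. Among the Toll members listed for both, the difference was 6.15 percentage points at pll, 41.8 at tub and 67.5 at cact. A smaller difference than that at cact was found at 97.7% of the genes, and a smaller one than that at tub at 91.8%.

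The Toll members are described in the order of the signal. Tl, the receptor gene, is the longest member with 43363 bp in RefSeq, and no peak of SMARCAD1 or CBP was listed for it.

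At tub, the gene of the adaptor Tube, the antibodies parted at the start. A SMARCAD1 peak of 2526 bp, on 3R from 211381 to 213906, covered the start with its centre at -323 bp, and also the end of the preceding gene Cont. The nearest CBP peak began 1002 bp beyond it. At the end of tub both antibodies had a peak. That of SMARCAD1 was 1795 bp wide, and that of CBP, 1475 bp wide, lay entirely within it. These peaks also covered the start of the next gene, CG14646, which is the nearest start to both.

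The kinase gene pll had the narrowest peak of the members with either antibody. The SMARCAD1 peak was 907 bp wide, on 3R from 23078550 to 23079456, and only 5.48% of SMARCAD1 peaks were narrower. The CBP peak, from 23078676 to 23079532, was 857 bp wide, with 12.1% of CBP peaks narrower. Both covered the start, with centres at -101 bp for SMARCAD1 and at -202 bp for CBP, and the peaks shared 781 bp. In the tables pll lies inside TfIIA-L, which encodes a subunit of the general transcription factor TFIIA and is read from the other strand. These peaks therefore lie in the interior of TfIIA-L as well.

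At cact, which encodes the IκB-like inhibitor, SMARCAD1 and CBP occupied separate parts of the gene. CBP was at the start, in a peak of 2734 bp on 2L from 16324798 to 16327531 with its centre at -63 bp, which also covered the start of CG4278. SMARCAD1 was downstream of it. One SMARCAD1 peak of 4970 bp, from 16318322 to 16323291, lay inside the gene from 2810 to 7779 bp after the start. The other, of 5704 bp from 16312479 to 16318182, ran from there over the gene end and into the end of fzy, a cell cycle gene. SMARCAD1 peaks covered 10124 bp of cact and CBP peaks 1304 bp. None of these bases was shared, and 1507 bp lay between the CBP peak and the nearer SMARCAD1 peak.

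The NF-κB genes of the Toll pathway, dl and Dif, are neighbours on 2L and had 1 peak each, with different antibodies. The CBP peak at dl, from 17448561 to 17451988, was 3428 bp wide and covered the start almost symmetrically, from -1628 to 1799 bp. SMARCAD1 had no peak at dl, and the nearest one was 5321 bp away. At Dif, a SMARCAD1 peak of 4871 bp, from 17418811 to 17423681, lay inside the gene, with its centre 18677 bp downstream of the start that the tables give, and the nearest CBP peak was 24880 bp away. The nearest start to this SMARCAD1 peak was not that of Dif but that of CG31803. The tables give Dif a length of 26676 bp, and its first 3094 bp overlap dl. RefSeq of a later assembly gives it 19914 bp, so the distance to the start depends on the gene model.

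**Figure D3:**
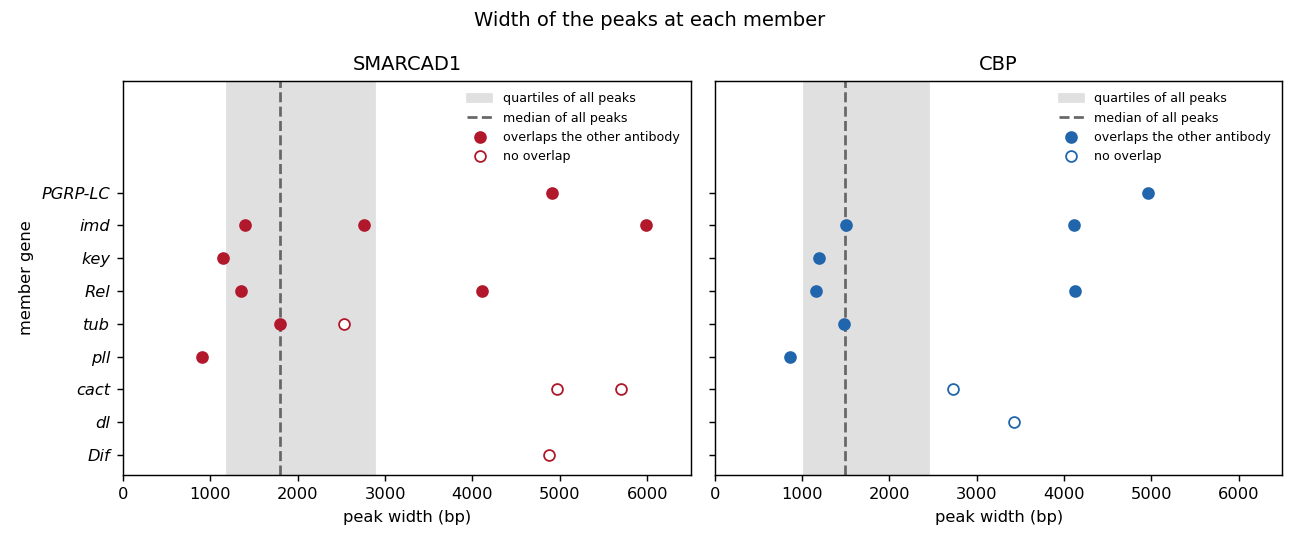
Width in bp of each peak at the 9 listed members, SMARCAD1 on the left and CBP on the right. Filled points overlap a peak of the other antibody and open points do not; the grey band spans the quartiles of all peaks in that library and the dashed line is their median. The 4 open SMARCAD1 points belong to tub, cact and Dif, and the 2 open CBP points to cact and dl.

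Overlap was counted from 1 bp. Of the 13 SMARCAD1 peaks at members, 9 overlapped a CBP peak, against a background of 58.9% of all SMARCAD1 peaks (57.1 to 60.6%). Of the 10 CBP peaks at members, 8 overlapped a SMARCAD1 peak, against 52.7% of all CBP peaks (51.1 to 54.3%). With only the peaks whose nearest start is that of the member, 6 of 8 SMARCAD1 peaks and 5 of 7 CBP peaks overlapped the other antibody. These nearest-start counts have no background here, because the shares over all peaks were not computed under that rule. The SMARCAD1 peaks without overlap were both peaks at cact, the one at Dif and the one at the start of tub. The CBP peaks without overlap were those at cact and dl. Every peak at an Imd member overlapped the other antibody. For the 9 overlapping SMARCAD1 peaks, a median of 92.3% of the peak lay under CBP (range 74.6 to 100%), and over all 1890 overlapping SMARCAD1 peaks the median was 83.6%. For the 8 overlapping CBP peaks the median was 97.4% (91.1 to 100%), against 100% over all 1982.

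The width of the peaks varied widely among the members. SMARCAD1 peaks ranged between 907 bp at pll and 5991 bp at imd, with a median of 2762 bp at the members and 1792 bp over all SMARCAD1 peaks. CBP peaks ranged between 857 bp at pll and 4960 bp at PGRP-LC, with a median of 2120 bp at the members and 1487 bp over all CBP peaks. Peaks of 4000 bp or more made up 6 of 13 at the members for SMARCAD1 and 12.9% of all SMARCAD1 peaks. For CBP they made up 3 of 10 at the members and 8.16% of all CBP peaks. The 6 wide SMARCAD1 peaks were those of PGRP-LC and Dif, both of cact, the one at the start of Rel and the one at the end of imd. The 3 wide CBP peaks covered the starts of PGRP-LC, imd and Rel. A peak that adjoins several genes has more entries and so more chances to name a member: 11 of the 13 SMARCAD1 peaks and 8 of the 10 CBP peaks were listed for 2 or more genes, against 65.9% of all SMARCAD1 peaks and 61.3% of all CBP peaks.

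By class, 6 of the 13 SMARCAD1 entries of the members overlapped the gene start (39.9% of all SMARCAD1 entries), 4 overlapped the gene end (24.1%) and 3 lay inside (17.5%). Of the 10 CBP entries, 7 overlapped the start (50.5% of all CBP entries) and 3 the end (14.8%), and no CBP peak lay inside a member, a class that held 18.6% of all CBP entries. No entry of a member was of the classes upstream, downstream or containing the whole gene. Peaks not listed for the member still lay nearby, of CBP at PGRP-LC, imd and Rel and of SMARCAD1 at tub, cact and Dif.

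The centres of the peaks nearest to the start were compared at the 7 members listed for both antibodies. SMARCAD1 minus CBP, along the direction of transcription, was 106 bp at PGRP-LC, -14 bp at key, -98 bp at Rel and 101 bp at pll. It was -892 bp at imd, where the CBP peak spanned 2 SMARCAD1 peaks, and -3001 bp at tub and 5358 bp at cact, where different parts of the gene were compared. With the widest peak of each antibody, the direction turned at imd, to 5108 bp, and the value at cact was 10834 bp. The centres were thus within 200 bp of each other at 4 of the 7 members, against 48.9% of the 3055 genes listed for both (47.1 to 50.6%).

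Other genes of the pathways were taken as 7 lists with 73 genes, and each was counted by whether its start lay under a peak. Among all protein-coding genes, 12.5% of starts were covered by both antibodies and 23.9% by CBP with or without SMARCAD1. The list of Imd signalling components holds kinases, ubiquitin enzymes, a caspase, an adaptor and a nuclear cofactor. Of its 10 starts, 6 were covered by both antibodies, 3 by CBP alone and none by SMARCAD1 alone. CBP with or without SMARCAD1 covered 9 of the 10. The 6 under both included akirin, a nuclear cofactor of Relish, and Diap2, a ubiquitin ligase that acts on Imd. They also included Dredd, the caspase that cleaves Relish, and Fadd, the adaptor between Imd and Dredd. At akirin the centre lay at -61 bp for SMARCAD1 and at -175 bp for CBP. At Diap2 the peaks were wide, 5259 bp for SMARCAD1 and 5116 bp for CBP, whereas at Fadd those at the start were 950 bp for SMARCAD1 and 839 bp for CBP. The catalytic IκB kinase gene ird5, the partner of key and named here after its values were seen, had a SMARCAD1 peak of 1565 bp and a CBP peak of 1458 bp over its start. Tak1, the kinase upstream of it and likewise named afterwards, had a CBP peak inside the gene, 5249 bp from the start, and no SMARCAD1 peak.

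Among 14 recognition genes and regulators of Imd, 1 start was covered by both antibodies, that of POSH, which encodes a ubiquitin ligase, and 3 by CBP alone. No entry of either antibody was found for 8 of these 14 genes, close to the 60.8% of all protein-coding genes with none. One of the 3 was pirk, a feedback inhibitor of Imd named here after its values were seen, which lay whole within a CBP peak of 6030 bp and had no SMARCAD1 peak. In the JNK branch, which Imd signalling also activates, 2 of 6 starts were covered by both antibodies, at hep, a JNK kinase, and puc, a JNK phosphatase, and 3 by CBP alone. CBP with or without SMARCAD1 covered 4 of the 14 starts of the first list and 5 of the 6 of the JNK branch. For both lists, the shares over all protein-coding genes were 12.5% for both antibodies and 23.9% for CBP with or without SMARCAD1.

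On the Toll side, 4 of 11 ligand and recognition genes had the start under both antibodies, against 12.5% of all protein-coding genes. The 4 were GNBP1, GNBP3 and PGRP-SA, which encode recognition proteins of the blood, and spz, the gene of the Toll ligand. Its SMARCAD1 peak was 2670 bp wide and centred at -1238 bp, and its CBP peak was 1535 bp wide and centred at -398 bp. Of 10 cytoplasmic adaptors and regulators, 2 had the start under both, Dsp1, which encodes a corepressor that works with Dorsal, and Gprk2, a kinase gene with 4 peaks of each antibody. The adaptor gene Myd88, named after its values were seen, had 4 CBP peaks, of which 1 covered the start with its centre at 293 bp, and a single SMARCAD1 peak, which lay over the gene end with its centre at 5595 bp. Of the 8 Toll-family receptors other than Tl, none had the start under both, against 12.5% of all protein-coding genes. With so few genes this is not read as a lack. No entry was found for 5 of the 8, close to the 60.8% of all protein-coding genes.

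**Figure D4:**
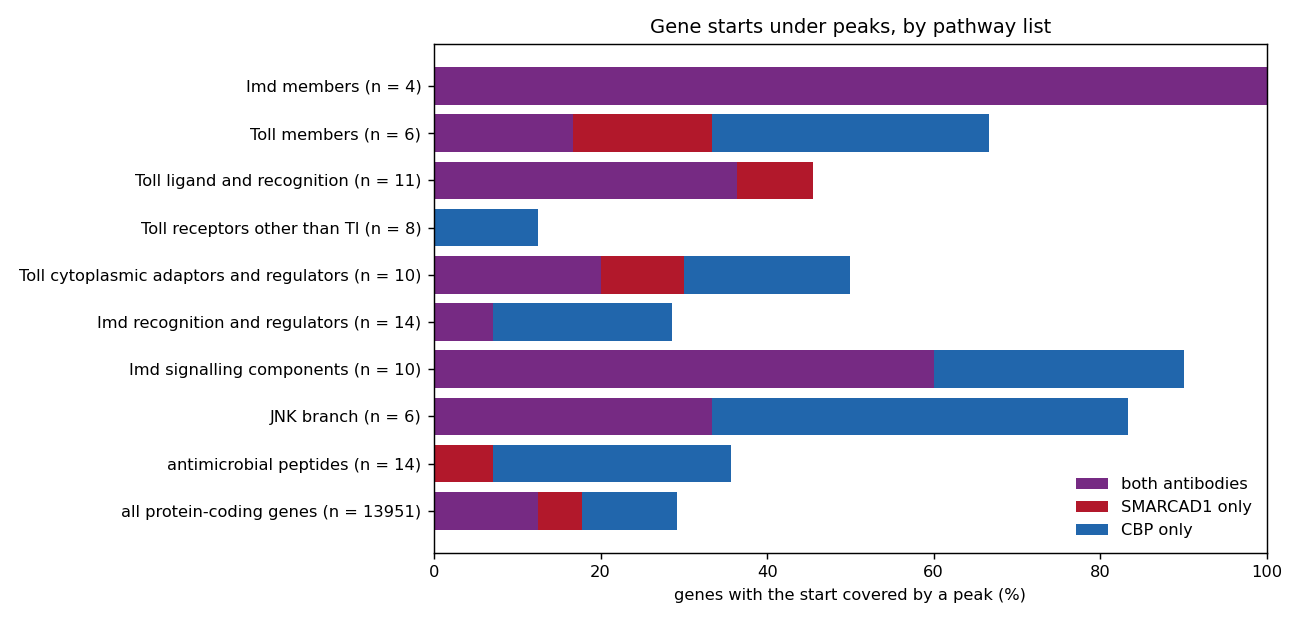
Percentage of genes in each list whose start lies under a peak of both antibodies (purple), SMARCAD1 alone (red) or CBP alone (blue), with the number of genes in brackets and all protein-coding genes in the last row. The Imd members stand at 4 of 4 and the listed Imd signalling components at 6 of 10 for both antibodies, against 12.5% of all protein-coding genes. Imd recognition genes and regulators stand at 1 of 14 and Toll ligand and recognition genes at 4 of 11. The antimicrobial peptides and the other Toll receptors have none under both.

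The targets of the pathways were taken as 14 antimicrobial peptide genes. No start among them was covered by both antibodies, and 9 of the 14 had no entry, close to the 60.8% of all protein-coding genes. Those of Drosomycin (Drs), Metchnikowin (Mtk) and Defensin (Def) were among the 9. CBP covered 4 of the 14 starts, against 23.9% of all protein-coding genes. All 4 were of cecropin genes that lie side by side on 3R. A CBP peak of 3880 bp, from 26034180 to 26038059, held CecA1 and the start of CecA2, and one of 3472 bp, from 26039030 to 26042501, held CecB and the start of CecC. Neither overlapped a SMARCAD1 peak. At Dro, the gene of Drosocin, the SMARCAD1 peak was 1045 bp wide and the CBP peak 906 bp. The CBP peak lay within the SMARCAD1 peak, with centres at 497 bp for CBP and 496 bp for SMARCAD1, but only the SMARCAD1 peak included the start. These genes were named after their values were seen. Over the 7 lists, 18 starts were covered by SMARCAD1 and 31 by CBP out of 73, with 15 in common, against 17.8% and 23.9% of all protein-coding genes and 12.5% for both.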

How the data were processed

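The deposited tables, made by the authors, hold peak positions, widths and distances in bp, and no read counts, P values or scores. Per the labels and methods, BWA was used by the authors for mapping and MACS, with a control, for calling the peaks of each library, and they listed nearest and overlapping genes with ChIPpeakAnno, whose annotation allowed 1 start per gene. The build named is dm6 (Release 6), but the tables use names such as Uextra and mostly other coordinates. Of 9 members with an entry, 2 had the lower coordinate of RefSeq Release 6 and 0 the higher one. The 2 were dl and Dif, both on the minus strand, where the lower coordinate is the gene end. The TSS side therefore had the Release 6 coordinate at no member. Such a mismatch does not show that a start is misplaced within its gene. Gene length in the tables and in RefSeq was 9527 bp in both at PGRP-LC, and 2050 and 2052 bp at pll. It differed more at tub, with 2569 and 2072 bp, and at Dif, with 26676 and 19914 bp. Coordinates are those of the tables and cannot be looked up in dm6 as they stand. Exons, introns, UTRs and sequences were not analysed here.

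The calling threshold and the merging of adjacent signal set how many peaks a region shows. Without scores or replicates, a weak or falsely called peak cannot be told from a strong one. The distance was checked to be that of the peak centre within 1 bp in all 5749 SMARCAD1 and 6418 CBP entries with a gene. Of 6016 gene names, 5864 (97.5%) were matched to a RefSeq symbol or a unique synonym. Overlaps were computed in Python 3.11.15 with pandas 2.3.3 and numpy 2.4.6, intervals with scipy 1.17.1 and figures with matplotlib 3.10.9, and the overlap step was tested on simulated peaks. The 10 members are all named. From the lists, up to 4 genes with both antibodies at the start were named in alphabetical order, and genes named after their values were seen are marked as such. Members and lists were chosen with earlier results of these data known. Alternatives were 1 entry per peak, windows around the start, a minimum width, stricter overlap and the widest peak.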

Additional observations from a re-analysis of the deposited data

How the results depend on the processing

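In all, 15 values were recomputed under 28 alternatives, of which 23 left a count within 1.5 times or a distance as it was. With the centre within 500 bp of the start in place of a covered start, 3 members remained for SMARCAD1 and 2 for both antibodies, against 6 and 5. With peaks whose nearest start is that of the member, 5 CBP peaks overlapped SMARCAD1, against 8. With the widest peak of each antibody, SMARCAD1 minus CBP became 5108 bp at imd, the reverse of -892 bp, and 10834 bp at cact, against 5358 bp. Each of these alternatives takes other peaks or fewer of them, and these values therefore depend on the setting. With the widest peak, the distances at PGRP-LC, key, Rel, tub and pll stayed the same. Why some values moved and others did not was not tested. With peaks of at least 1000 bp, pll dropped out, leaving 4 members with both antibodies at the start. A stricter list by P value or score was not run, because the tables hold none. No paired analysis was possible because there was 1 library per antibody. The depth is unknown and limits every statement that a peak is missing.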
